A study of Mus musculus with 21 samples.

Results

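The transcripts of 10 heat shock chaperones were examined in whole brains of 21 SAMP8 mice, 12 given phosphate-buffered saline (PBS) and 9 given HsTX1[R14A]. These genes, Hspa1a, Hspa1b, Hspa8, Hspa5, Hsph1, Hspa4, Hsp90aa1, Hsp90ab1, Dnajb1 and Hspb1, are 10 of the 16318 genes in the deposited table. They were selected on measured values, as a family in which Hspa1b had about doubled between treatments in these same libraries. The difference between treatments is therefore a description for them: model values are printed with their errors, no p-value is given, and the number of members past the threshold stands only beside the share of all genes. Tests are kept for sex, for the treatment by sex interaction, for their order of level and for their co-variation among PBS mice.

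All mice were of the SAMP8 strain, a senescence-accelerated line used as a model of Alzheimer's disease, and were 6 months old when dosing ended. HsTX1[R14A], spelled HxTX1 in the sample labels, is a peptide that blocks the voltage-gated potassium channel Kv1.3, and it was injected under the skin on alternate days at 1 mg/kg for 8 weeks in 3 females and 6 males. The 6 female and 6 male control mice received PBS, also on alternate days, and only SAMP8 mice are compared, so a treated brain is compared only with a vehicle-injected brain of the same strain. Each library is 1 mouse and holds RNA of the whole brain, in which fewer cells of a type and less RNA per cell cannot be told apart.

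Heat shock chaperones hold unfolded stretches of proteins and help them fold, assemble or be cleared. HSP70 proteins bind short hydrophobic stretches in cycles of ATP hydrolysis, which J-domain proteins such as Dnajb1 start and which HSP110 proteins such as Hsph1 and Hspa4 reset by releasing the nucleotide, while HSP90 proteins act late, on kinases and steroid receptors that are nearly folded. The transcription factor HSF1 drives the stress-inducible members when unfolded protein builds up in the cytosol, and the unfolded protein response drives Hspa5 when it builds up in the endoplasmic reticulum. Neurons carry constitutive members such as Hspa8 and Hsp90ab1 at high levels even without stress.

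Promoter sequences are shown for the members whose regulation differs by textbook knowledge, with the matches a search found in capitals. RefSeq windows of GRCm38.p6, each 300 bases around a gene's start, were matched for 7 of the 10 members, all but Hspa8, Hsp90aa1 and Hsp90ab1. The heat shock element bound by HSF1 is made of inverted GAA and TTC units and was searched as a pair of units, GAANNTTC or TTCNNGAA, which read the same on both strands. It was also searched as 3 units, GAA, TTC and GAA or TTC, GAA and TTC, each set apart by any 2 bases, which contain the pair and cover both strands. The endoplasmic reticulum stress element was searched on both strands as CCAAT, any 9 bases and CCACG. Only bases before the start are printed, 5′ to 3′.
Hspa1a (chr17:34972157-34972406, minus strand): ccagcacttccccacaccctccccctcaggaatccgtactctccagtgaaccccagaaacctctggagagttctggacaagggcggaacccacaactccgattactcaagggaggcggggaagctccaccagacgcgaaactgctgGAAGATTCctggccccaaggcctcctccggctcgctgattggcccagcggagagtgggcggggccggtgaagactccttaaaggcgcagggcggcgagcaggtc
Hspa1b (chr17:34959239-34959488, minus strand): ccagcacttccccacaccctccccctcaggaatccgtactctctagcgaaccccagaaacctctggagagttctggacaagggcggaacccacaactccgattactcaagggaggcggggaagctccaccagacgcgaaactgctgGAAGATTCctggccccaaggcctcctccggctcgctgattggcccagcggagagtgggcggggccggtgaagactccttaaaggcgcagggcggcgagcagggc
Hspb1 (chr5:135887769-135887918, plus strand): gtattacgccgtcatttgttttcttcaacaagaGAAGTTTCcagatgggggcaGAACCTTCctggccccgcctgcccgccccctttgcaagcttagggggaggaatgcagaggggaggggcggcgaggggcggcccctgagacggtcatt
Hspa5 (chr2:34771940-34772089, plus strand): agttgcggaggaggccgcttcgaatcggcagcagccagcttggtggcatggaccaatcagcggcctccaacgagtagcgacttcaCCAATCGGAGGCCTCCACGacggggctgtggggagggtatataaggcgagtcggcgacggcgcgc

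The windows of Hspa1a and Hspa1b matched at 247 of the 250 bases before the start (98.8%), and each holds 1 pair of heat shock units with its first base 104 bases before the start. Hspb1 holds 2 such pairs, at 117 and 97 bases before the start. Hspa5 holds no pair and 1 endoplasmic reticulum stress element, 65 bases before the start. Of the members not printed, Hsph1 holds pairs on both sides of its start and an element of 3 units after it, and Dnajb1 and Hspa4 hold none of these letters in their windows. Over all 32851 RefSeq promoter windows, 15.1% hold the pair, 0.603% the 3 units and 0.119% the endoplasmic reticulum stress element. A match of this kind describes the letters and was not measured as a binding site here.

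All 10 members passed the filter on low counts. Library totals ran from 14917174 to 47613792 estimated counts, and the 3 most abundant members had at least 17599 counts in every mouse, whereas Hspb1 had between 34 and 247 counts, Hspa1a between 41 and 567 and Hspa1b between 53 and 667. Long transcripts were counted relatively more in some libraries than in others. The slope of centered log2 CPM (counts scaled to library size) on log2 transcript length was -0.0764 ± 0.161 (SD, n = 12) in PBS-treated mice and 0.102 ± 0.119 (SD, n = 9) in HsTX1[R14A]-treated mice. The column names of the deposited table write the libraries in 2 forms, the more common one for 15 mice (10 given PBS, 5 given HsTX1[R14A]) and the less common one for 6 (2 given PBS, 4 given HsTX1[R14A]). What the forms stand for is not given in the sources used here.

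Some members share reads with other genes. Hspa1a (chr17:34969190-34972156) and Hspa1b (chr17:34956436-34959238), neighbors on the minus strand, have transcripts identical at 93.6% of 2701 aligned bases, and 65.4% and 68.0% of their 31-base stretches occur in another gene's transcripts, nearly all of them in each other's. The split of reads between them is an estimate of Salmon, and their sum is given beside them. Hspa8 shared 59.7% of its stretches, mostly with Gm15459, Hsp90aa1 62.9%, mostly with Gm12346, and Hspb1 56.7%, with Hsp25-ps1, so their levels are also less certain. Hsp90ab1 shared 16.6%, and Dnajb1, Hspa5, Hsph1 and Hspa4 shared between 0 and 1.08%. A gene on the other strand, Gm20481, overlaps Hspa1a over 2225 bases, and the labels and the study's methods name different library kits, so it is uncertain whether its reads were kept apart.

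The first question was how much of each chaperone a PBS-treated SAMP8 brain held. Per kilobase of transcript, the 3 most abundant members were the constitutive HSP90 Hsp90ab1, at 539.7 ± 69.8 CPM per kilobase (RPKM; SD, n = 12), the constitutive HSP70 Hspa8, at 518.9 ± 67.0, and the other cytosolic HSP90, Hsp90aa1, at 408.8 ± 31.6. Hsp90ab1 and Hspa8 did not differ beyond their spread (mean log2 difference 0.057, Hsp90ab1 higher in 8 of 12 mice, exact paired permutation test, two-sided, adjusted p = 0.555 over 9 neighboring pairs). Hsp90aa1 lay below Hspa8 in 12 of 12 mice (mean log2 difference 0.34, adjusted p = 0.000879, exact paired permutation test; its unadjusted p of 0.000488 is the smallest that 12 mice allow). The neighbors tested were ordered by mean RPKM in these same mice, and the tests measure only the spread between mice. An error in a transcript's length would move all 12 mice alike and is not covered. In plain CPM Hspa8 was above Hsp90ab1, at 1639 ± 212 against 1360 ± 176 (SD, n = 12).

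Much lower followed the HSP110 protein Hsph1, at 59.4 ± 6.05 RPKM, and Hspa5, the HSP70 of the endoplasmic reticulum also called BiP, at 59.2 ± 9.49. These did not differ beyond their spread (Hsph1 higher in 8 of 12 mice, mean log2 difference 0.017, adjusted p = 0.833, exact paired permutation test). Hspa4, another HSP110 protein, stood at 40.7 ± 4.91 RPKM and the J-domain protein Dnajb1 at 17.4 ± 1.89, and each was lower than the member above it in 12 of 12 mice (adjusted p = 0.000879 each, exact paired permutation test). The small heat shock protein Hspb1, which holds unfolding proteins without using ATP, was at 3.56 ± 0.833 RPKM.

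The stress-inducible HSP70 genes were at the bottom of the order. Hspa1b was measured at 1.92 ± 0.534 RPKM and Hspa1a at 1.82 ± 0.601 (SD, n = 12). Hspb1 was above Hspa1b in 11 of 12 mice (mean log2 difference 0.91, adjusted p = 0.00146, exact paired permutation test), and Hspa1b and Hspa1a did not differ beyond their spread (Hspa1b higher in 6 of 12 mice, adjusted p = 0.296). In HsTX1[R14A]-treated mice Hspa1b and Hspa1a were still the lowest per kilobase, at 3.83 ± 1.21 and 3.25 ± 1.11 RPKM (SD, n = 9). Hsp90ab1 was at 667.4 ± 73.4 RPKM in the same mice.

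The members also differed in how much they varied between PBS-treated mice. The SD of log2 CPM was 0.54 for Hspa1a, 0.42 for Hspa1b and 0.36 for Hspb1, the 3 least abundant members, and lay between 0.11 and 0.24 for the other 7. Hsp90aa1 was the steadiest of the 10, with an SD of 0.11, and 5.95% of the 16303 genes tested had a smaller one. For Hspa1a that share was 85.4%. The median gene had an SD of 0.30.

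The next question was how the members stood after HsTX1[R14A]. Hspa1b, the inducible HSP70 that was named when the family was chosen, had a lowest value of 2.93, a median of 5.43 and a highest of 7.30 CPM (scaled by TMM) in the 12 PBS-treated mice. In the 9 HsTX1[R14A]-treated mice its lowest value was 6.32, its median 10.2 and its highest 17.7 CPM. All but 1 of the treated mice lay above the highest PBS-treated mouse, and the exception, male mouse 93, lay among the upper PBS values. Its mean was 1.99-fold that of PBS-treated mice, and its log2 fold change in a model with sex was 1.00 (standard error, SE, 0.18).

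For Hspa1a the lowest, median and highest values were 2.30, 5.65 and 8.57 CPM with PBS and 3.64, 9.46 and 15.05 CPM with HsTX1[R14A]. Of the treated mice 7 lay above the highest PBS-treated mouse, and mouse 93 was below the PBS median. Hspa1a had a log2 fold change of 0.88 (SE 0.21). The sum of Hspa1a and Hspa1b, which does not depend on how their reads were split, ran from 5.23 to 15.9 CPM with a median of 11.7 in PBS-treated mice, and from 9.96 to 32.8 with a median of 18.5 in HsTX1[R14A]-treated mice. Its log2 fold change was 0.95 (SE 0.19), and 8 of 9 treated mice were above the highest control. Hspa1b made up 50.5 ± 5.27% of the pair's CPM with PBS (SD, n = 12) and 53.2 ± 5.05% with HsTX1[R14A] (n = 9), so the pair differed between groups in about equal parts.

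The constitutive HSP70 Hspa8, which also strips clathrin from synaptic vesicles, differed little. Its lowest, median and highest values were 1270.8, 1608 and 2077 CPM with PBS and 1472, 1706 and 2094 CPM with HsTX1[R14A], and 1 of 9 treated mice exceeded the PBS range. The log2 fold change was 0.09 (SE 0.09).

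Hspa5 measured 162, 221 and 262 CPM (lowest, median, highest) with PBS and 195, 278 and 313 CPM with HsTX1[R14A]. Of the 9 treated mice 6 were above every PBS-treated mouse and mouse 93 was again the lowest of the treated. The log2 fold change was 0.37 (SE 0.08).

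Of the HSP110 proteins, Hsph1 had a lowest value of 245, a median of 282 and a highest of 348 CPM with PBS against 293, 345 and 422 CPM with HsTX1[R14A], a log2 fold change of 0.29 (SE 0.07). Hspa4 measured 153, 183 and 226 CPM with PBS against 202, 223 and 245 CPM, a log2 fold change of 0.25 (SE 0.07). For both genes all 9 treated mice were above the PBS median and 4 were above the PBS range.

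The HSP90 paralogs, which share most of their sequence and their cochaperones, did not stand alike in the model with sex. Hsp90ab1 ran over 1080, 1325 and 1677 CPM (lowest, median, highest) with PBS and 1352, 1726 and 2006 CPM with HsTX1[R14A], with a log2 fold change of 0.32 (SE 0.08). Hsp90aa1, the more stress-inducible of them, ran over 1150, 1350 and 1479 CPM with PBS and 1208, 1391 and 1641 CPM with HsTX1[R14A], with a log2 fold change of 0.05 (SE 0.07). With the length slope of the libraries as a covariate they were closer, Hsp90ab1 at 0.16 (SE 0.08) and Hsp90aa1 at 0.11 (SE 0.08). In 5 treated mice Hsp90ab1 was above the PBS range, as in 3 for Hsp90aa1, and 9 and 5 of the 9 were above the PBS median.

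Dnajb1, the J-domain partner of cytosolic HSP70, measured 43.2, 51.3 and 66.0 CPM with PBS and 51.2, 60.3 and 68.8 CPM with HsTX1[R14A], a log2 fold change of 0.20 (SE 0.07). Hspb1 measured 1.98, 3.56 and 4.44 CPM with PBS and 3.87, 4.10 and 6.56 CPM with HsTX1[R14A], a log2 fold change of 0.46 (SE 0.14). Female mouse 71 was the highest treated mouse for both, as it was for Hspa1a, Hspa1b and Hspa5. The groups overlapped for all 10 members, where 0.0184% of the 16303 genes had groups that did not overlap (0.00613% higher and 0.0123% lower with treatment).

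**Figure D1:**
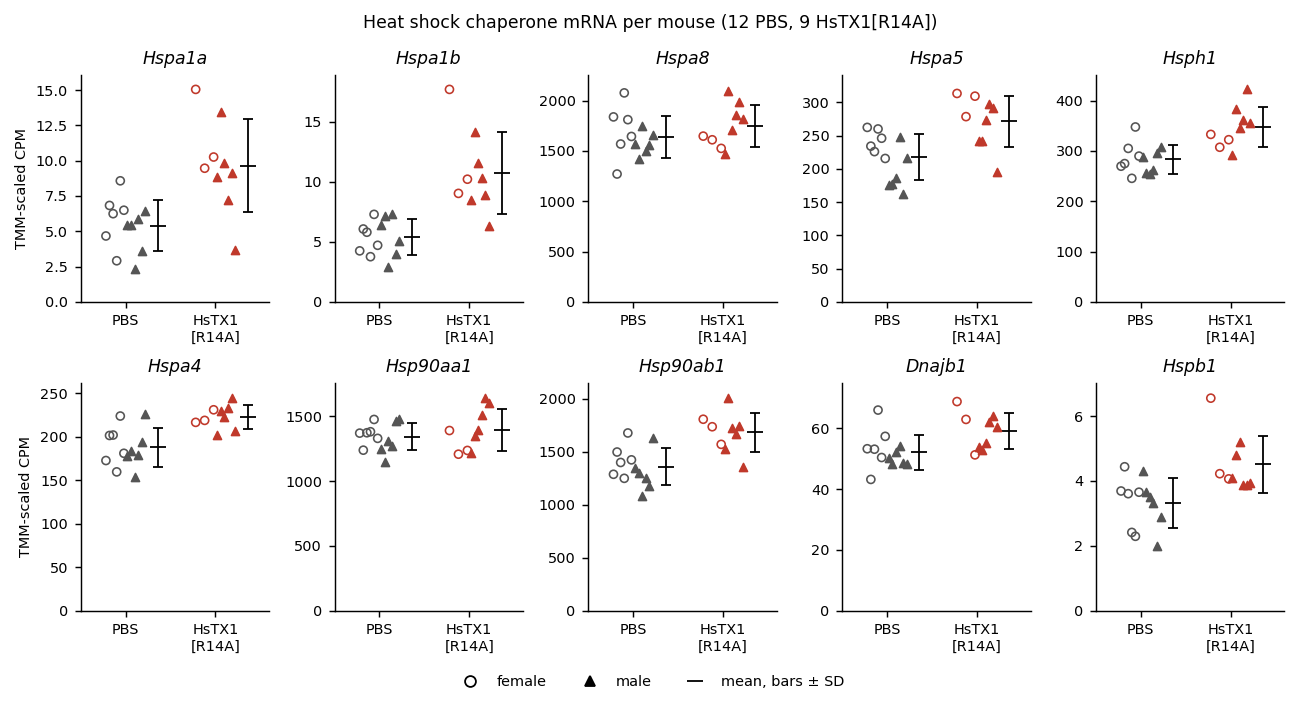
TMM-scaled CPM of each chaperone (vertical axes from 0) in the 12 PBS-treated and 9 HsTX1[R14A]-treated mice, 1 point per mouse (open circles female, filled triangles male), with the mean ± SD at the right of each group. For Hspa1b 8 of 9 treated mice lie above the highest PBS-treated mouse, and for Hspa8 and Hsp90aa1 the groups largely cover the same range.

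Over the family, 10 of 10 log2 fold changes were above 0, where 48.6% of all genes tested were, and their range was 0.05 to 1.00. An adjusted p of at most 0.05 was reached by 8 members, all of them higher (edgeR's quasi-likelihood test, p-values adjusted over all genes by Benjamini-Hochberg), where 31.6% of all genes were called in either direction, 15.5% higher and 16.1% lower. The treatment contrast chose the family, so these counts are no test of it and nothing is read from them. Among the members Hspa1b alone reached a log2 value of 1, as did 0.54% of all genes.

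The size of these differences moved with the length slope of the libraries, which itself differed between treatments. With the slope as a covariate the log2 fold change of Hspa1b was 0.56 (SE 0.16), that of Hspa1a 0.24 (SE 0.14), that of Hsp90ab1 0.16 (SE 0.08), that of Hspa4 0.12 (SE 0.06) and that of Hspb1 0.29 (SE 0.16). Hspa5 was at 0.37 (SE 0.10) in that model, and Dnajb1 and Hspa8 were higher than before, at 0.33 (SE 0.06) and 0.23 (SE 0.09). No gene was then called (edgeR, 1865 of 16303 genes had an unadjusted p under 0.05). When the trend of counts on length and GC was taken out of every library instead, the values were 0.84 (SE 0.14) for Hspa1b and 0.68 (SE 0.15) for Hspa1a. Hsp90ab1 and Hsp90aa1 were at 0.37 (SE 0.09) and 0.18 (SE 0.07) with that trend taken out.

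Within the 15 mice of the more common name form Hspa1b was at 1.02 (SE 0.24) and Hspa1a at 0.92 (SE 0.26), and within the 6 mice of the other form at 0.87 (SE 0.26) and 0.47 (SE 0.27). Hspa4, Hsp90ab1 and Hsp90aa1 were at 0.06 (SE 0.13), 0.05 (SE 0.17) and -0.09 (SE 0.16) within the less common form. No gene was called within either form alone (edgeR, 5797 and 532 genes with an unadjusted p under 0.05). The part of the name form, the length slope and the treatment in these values was not tested further.

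**Figure D2:**
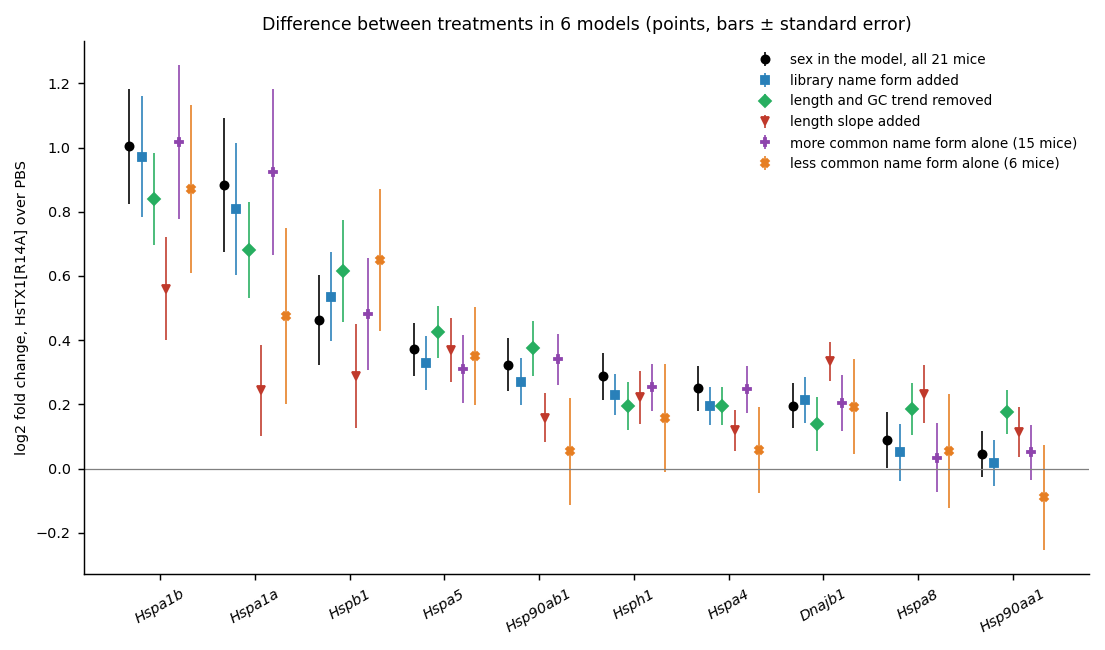
Log2 fold change of each chaperone, HsTX1[R14A] over PBS (vertical axis), in 6 models marked by symbol, with bars of 1 standard error either side. Hspa1b is lowest with the length slope as a covariate, at 0.56, and Hspa5 stays between 0.31 and 0.43 in the 6 models shown.

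Markers of other cells of the brain were followed beside these values. Their calls stand beside the share of all genes called for treatment, 31.6% (15.5% higher and 16.1% lower), and lists this short are not read further. The summed level of 6 oligodendrocyte markers ran from 4277 to 6608 CPM with PBS and from 3243 to 4783 CPM with HsTX1[R14A], and 3 of the 6 were called lower. Neuron markers ran from 4136 to 6603 and from 4597 to 7244 CPM, with 2 of 6 called higher, and astrocyte markers from 1900 to 3906 and from 2281 to 3999 CPM, with 2 of 6 called lower. The median astrocyte sum was nevertheless higher with HsTX1[R14A], at 3452 CPM against 3242 CPM with PBS. Microglia markers ran from 334 to 484 and from 280 to 420 CPM, with 2 of 6 called lower, and endothelial markers from 63.0 to 121 and from 74.9 to 133 CPM, with 1 of 6 called higher. Choroid plexus and blood markers varied widely within each group, from 69.0 to 1127 and from 5.82 to 157 CPM with PBS and from 58.0 to 831 and from 15.1 to 87.6 CPM with HsTX1[R14A], with 0 of 6 and 0 of 5 called. No marker was at 0 in any group, and the part of cell composition in the chaperone values was not tested.

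Sex was compared within the PBS-treated mice, a contrast that the choice of the family did not use, although these libraries were part of the treatment contrast that it did use. None of the 10 members was called between 6 males and 6 females, where 0.0374% of 16039 genes were, 0.0312% higher and 0.00623% lower in males (6 genes by edgeR's quasi-likelihood test, 401 with an unadjusted p under 0.05). DESeq2 and limma/voom called 9 and 6 genes and 0 members. Hspa5 came nearest, at 240.6 ± 18.8 CPM in females and 194 ± 31.9 CPM in males (SD, n = 6 each). The log2 difference, male minus female, was -0.31 (SE 0.11, adjusted p = 0.967, edgeR). The lowest female value of Hspa5, 216 CPM, was above 4 of the 6 male values.

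Hspa1a was at 5.95 ± 1.95 CPM in females and 4.84 ± 1.57 CPM in males (log2 difference -0.30, SE 0.27, adjusted p = 0.967, edgeR), and Hspa1b at 5.31 ± 1.31 and 5.46 ± 1.78 CPM (log2 difference 0.04, SE 0.23, adjusted p = 0.987). For the other 7 members the log2 difference between the sexes ran from -0.13 to -0.03, with SE from 0.10 to 0.20.

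The treatment by sex interaction asks whether males and females differed in their distance from PBS. In females the mean log2 CPM of Hspa1b was 1.17 higher with HsTX1[R14A], with treated values of 9.04, 10.2 and 17.7 CPM in the 3 mice, and in males it was 0.88 higher. The interaction, male minus female, was -0.34 (SE 0.37, adjusted p = 1.00, edgeR). Hspa8 had the largest interaction relative to its error, 0.30 (SE 0.17, adjusted p = 1.00, edgeR). It was 0.08 lower with treatment in females and 0.20 higher in males on the log2 scale. None of the 10 members was called, and 0% of the 16303 genes (edgeR, 270 with an unadjusted p under 0.05, DESeq2 and limma/voom 0 genes). Only 3 treated females enter this comparison, which limits its precision.

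Whether the chaperones vary together was asked over the 12 PBS-treated mice, by the correlation of log2 CPM in all 45 pairs of members (permutation test, 100000 resamples, two-sided). An adjusted p of at most 0.05 was reached by 8 pairs, 7 positive and 1 negative, and the median r over the 45 pairs was 0.20. The positive pairs fell in a set of Hspa1a, Hspa1b, Hspa4, Hsph1 and Hsp90ab1 and in the single pair of Hspa8 and Dnajb1.

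Hspa1a and Hsp90ab1 were the closest pair (r = 0.87, p = 0.00018, adjusted p = 0.00765; rho = 0.93, p = 3e-05, adjusted p = 0.00135, permutation tests, n = 12). Their r was 0.87 again without the 2 mice farthest from the median of Hspa1a, 0.88 within the 10 mice of the more common name form (adjusted p = 0.0140, permutation test) and 0.88 after the trend on length and GC content was removed (adjusted p = 0.00518). One of these genes is an HSP70 and the other an HSP90, and any part of shared reads in their r was not tested.

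Hspa4 correlated with Hsp90ab1 (r = 0.85, p = 0.00068, adjusted p = 0.00765; rho = 0.76, p = 0.0054, adjusted p = 0.0608, permutation tests) and with its fellow HSP110 protein Hsph1 (r = 0.83, p = 0.00064, adjusted p = 0.00765; rho = 0.83, p = 0.00117, adjusted p = 0.0263). Without the 2 farthest mice these r were 0.67 and 0.71. Within the more common name form they were the same, 0.67 and 0.71, since the 2 farthest mice were those of the other form (adjusted p = 0.159 and 0.155, permutation tests). After removal of the trend they were 0.77 (adjusted p = 0.0389) and 0.64 (adjusted p = 0.121).

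Hspa1a and Hspa1b, whose reads are split by estimation, correlated with r = 0.83 (p = 0.00053, adjusted p = 0.00765; rho = 0.64, p = 0.0294, adjusted p = 0.165, permutation tests). Their r was 0.61 without the 2 farthest mice, 0.83 within the more common name form (adjusted p = 0.0428, permutation test) and 0.66 after the trend was removed (adjusted p = 0.115), where the call was lost. The other called pairs were Hspa1a with Hspa4 (r = 0.79), Hspa8 with Dnajb1 (r = 0.77), Hsph1 with Hsp90ab1 (r = 0.73) and, negative, Hsp90aa1 with Hspb1 (r = -0.74), with adjusted p between 0.0175 and 0.0422 and adjusted p of rho between 0.0608 and 0.248 (permutation tests, n = 12). Without the 2 farthest mice r was 0.54, 0.24, 0.59 and -0.86, so the pair of Hspa8 and Dnajb1 rests on those mice. After the trend was removed 2 of the 8 pairs were still called, Hspa1a with Hsp90ab1 and Hspa4 with Hsp90ab1, and 2 other pairs were called that had not been, Hspa4 with Hsp90aa1 (r = 0.90, adjusted p = 0.0027) and Hsph1 with Hsp90aa1 (r = 0.76, adjusted p = 0.0389, permutation tests). No pair reached an adjusted p of 0.05 without PBS male mouse 90, which was lowest for Hspa1a, Hspa1b, Hspa4 and Hsp90ab1. The r of Hspa1a with Hsp90ab1 was then 0.81 (adjusted p = 0.0608, permutation test, n = 11).

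**Figure D3:**
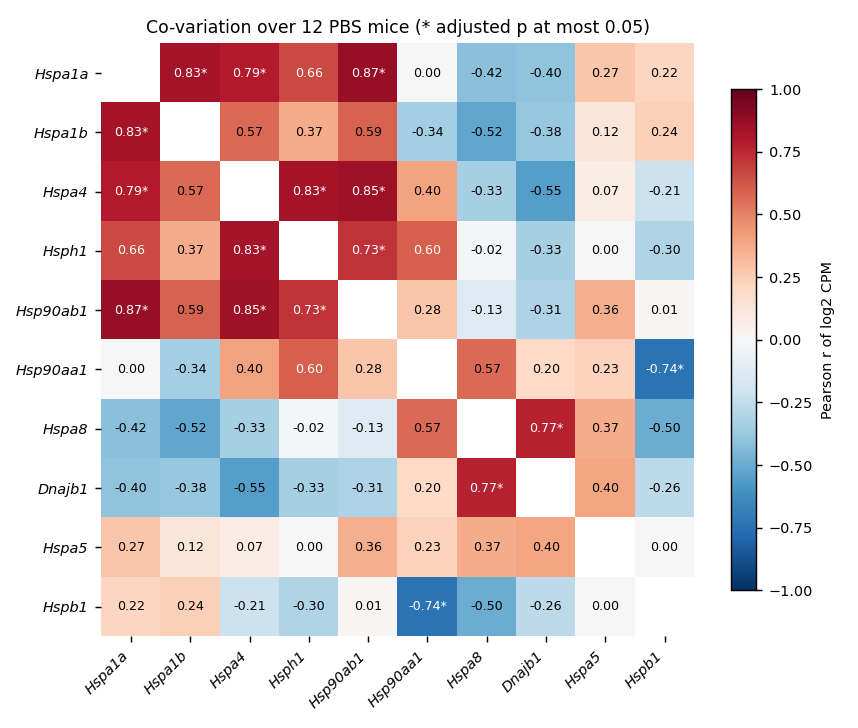
Pearson r of log2 CPM between each pair of chaperones over the 12 PBS-treated mice (color, from -1 to 1), with an asterisk where the adjusted p of the permutation test is at most 0.05. Hspa1a, Hspa1b, Hspa4, Hsph1 and Hsp90ab1 form a block of positive r from 0.37 to 0.87, and Hspa5 has no r beyond 0.40 with any other member.

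The members' own relation to the length slope of the libraries was followed next, and its part in the correlations between members was not tested. Over the PBS-treated mice the level of 6 of the 10 members correlated with that slope at an adjusted p of at most 0.05, 4 positively (permutation test, 100000 resamples, two-sided, adjusted over the 10 members). Hspa1a did so most closely (r = 0.92, p = 4e-05, adjusted p = 0.0004; rho = 0.87, p = 0.00062, adjusted p = 0.0031, n = 12). Its r was 0.81 without the 2 mice farthest from the median slope, 0.93 within the 10 mice of the more common name form (adjusted p = 0.0013) and 0.89 over the 9 HsTX1[R14A]-treated mice.

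Hsp90ab1 (r = 0.76, rho = 0.87), Hspa1b (r = 0.77, rho = 0.62) and Hspa4 (r = 0.77, rho = 0.81) followed, each with an adjusted p of 0.0101 for r and of 0.0031, 0.0753 and 0.00707 for rho (permutation tests). Without the 2 farthest mice r was 0.72, 0.53 and 0.52, and over the 9 HsTX1[R14A]-treated mice it was 0.65, 0.72 and 0.21. Hspa8 and Dnajb1 went the other way (r = -0.67, adjusted p = 0.0359, and r = -0.63, adjusted p = 0.0463; adjusted p of rho = 0.190 and 0.156, permutation tests), and without PBS female mouse 103 their r were -0.48 and -0.36, with adjusted p of 0.246 and 0.349. Hspa5 showed no such relation in PBS-treated mice (r = 0.05, rho = 0.01, adjusted p = 0.866 and 0.991, permutation tests), but over the 9 HsTX1[R14A]-treated mice its r was 0.61. Hsp90aa1 had an r of -0.15 in PBS-treated and -0.73 in HsTX1[R14A]-treated mice. The r of treated mice were not tested. Hspa1a with 2967 bases and Hspa8 with 3158 bases lie on opposite sides. The longest members, Hspa4 with 4618 bases and Hsph1 with 4764 bases, both had a positive r. That of Hsph1 was 0.60 (adjusted p = 0.0572, permutation test). Whether r follows transcript length over the members was not tested.

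**Figure D4:**
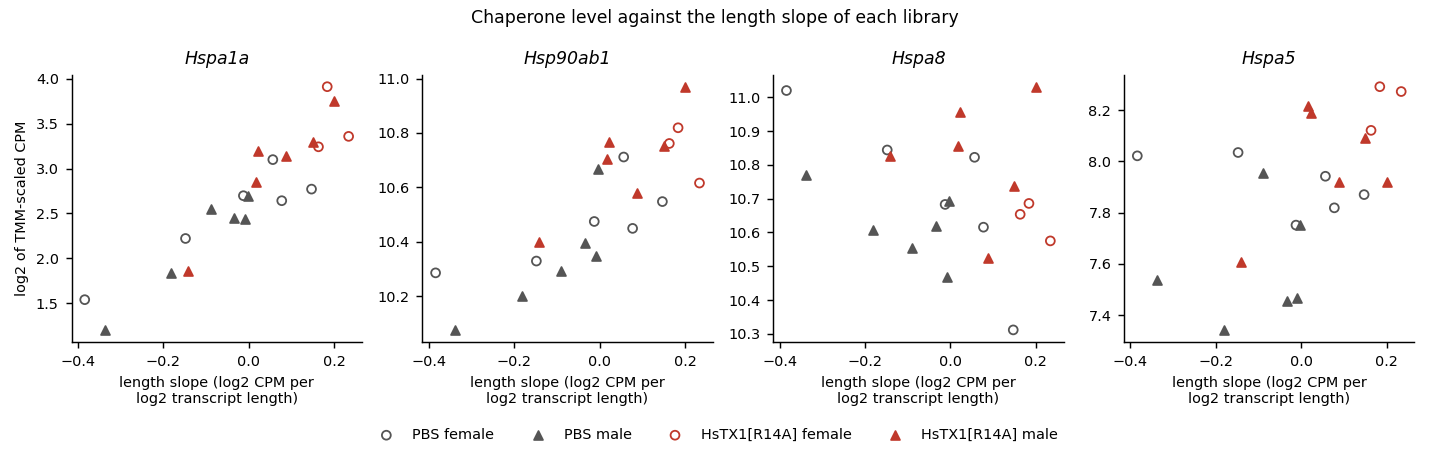
Log2 of TMM-scaled CPM (vertical axes) against the length slope of the library (horizontal axes, log2 CPM per log2 transcript length) for 4 chaperones, 1 point per mouse, gray for PBS and red for HsTX1[R14A], open circles female and filled triangles male. Hspa1a climbs with the slope in both groups (r = 0.92 over 12 PBS mice and 0.89 over 9 HsTX1[R14A] mice). Hspa5 does not in the PBS mice (r = 0.05), and its r is 0.61 over the HsTX1[R14A] mice.

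The genes most alike to 3 of the members were found by the highest r of log2 CPM over the 12 PBS-treated mice, among the 13292 genes whose mean log2 CPM was 1 or more. For the sum of Hspa1a and Hspa1b they were Rgl1 (r = 0.96), the transcription factor Sox6 (r = 0.95) and the retinoid receptor Rxra (r = 0.95). For Hspa5 they were the serotonin receptor Htr1b (r = 0.90), the protocadherin Pcdha2 (r = 0.89) and Scaper (r = 0.89), and for Hsp90aa1 they were Eid2 (r = 0.86), Tmem215 (r = 0.86) and Rab35 (r = 0.84). The 12 points of each r share their libraries, and with so many genes compared the highest r are high by selection.

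Other genes of the chaperone network were then followed for treatment in 11 lists, from other HSP70 proteins to immediate early genes, with 114 of 115 genes tested and Hspb7 not in the table. Of the 114 genes 43 were called (37.7%, where 31.6% of all genes were), 29 higher and 14 lower with HsTX1[R14A] (edgeR's quasi-likelihood test, adjusted over all genes). Over all genes 15.5% were called higher and 16.1% lower. The counts given below for each list stand beside these shares, and lists this short are not read as a response of their own. The 12 immediate early genes among them are not chaperones and gave 6 of these calls, all higher. The median log2 fold change was 0.05 over the 114 and -0.01 over all 16303 genes. With the trend on length and GC content removed 31 were called, 29 higher and 2 lower. None was called with the length slope as a covariate or within either name form alone, and without PBS male mouse 90 the count was 19.

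The endoplasmic reticulum chaperones, partners of Hspa5, had 8 of 16 genes called, 7 higher and 1 lower, with a median log2 fold change of 0.11. Calr, the calcium-binding chaperone calreticulin, was at 340.8 ± 38.6 CPM with PBS (SD, n = 12) and 408.7 ± 40.4 with HsTX1[R14A] (n = 9), a log2 fold change of 0.30 (SE 0.07, adjusted p = 0.0151, edgeR). Pdia6, a disulfide isomerase, was at 79.5 ± 9.90 and 98.5 ± 11.7 CPM, a log2 fold change of 0.34 (SE 0.07, adjusted p = 0.0151, edgeR). Both were above the PBS median in 8 of 9 treated mice. Dnajb9, a J-domain partner of Hspa5, fell by 0.28 on the log2 scale (SE 0.11, adjusted p = 0.0456). With the length slope as a covariate Calr was at 0.21, Pdia6 at 0.27 and Dnajb9 at 0.0010, none of them called.

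Other HSP70 and HSP110 proteins had 4 of 9 genes called, all higher, with a median of 0.17. Hyou1, the HSP110 protein of the endoplasmic reticulum, had a log2 fold change of 0.67 (SE 0.16, adjusted p = 0.0163, edgeR), with mean levels of 57.6 ± 17.4 CPM and 88.3 ± 21.6 CPM. Hspa12a, a distant HSP70 relative, had one of 0.50 (SE 0.12, adjusted p = 0.0163), with 9 of 9 treated mice above the PBS median. Among the other HSP90 proteins and cochaperones 5 of 14 were called, 4 higher and 1 lower: Hsp90b1, the HSP90 of the endoplasmic reticulum, rose by 0.21 (SE 0.06) and the immunophilin Fkbp4 by 0.21 (SE 0.06), and Cacybp fell by 0.37 (SE 0.13), with adjusted p from 0.0243 to 0.0377 (edgeR). With the length slope as a covariate Hyou1 was at 0.20, Hspa12a at 0.18, Hsp90b1 at 0.22 and Fkbp4 at 0.26, and Cacybp turned sign to 0.017.

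The J-domain list had 8 of 18 genes called, 6 higher and 2 lower, with a median of 0.02. Dnajc5, the cysteine string protein of synaptic vesicles, had a log2 fold change of 0.27 (SE 0.08) and Dnajb11, of the endoplasmic reticulum, one of 0.20 (SE 0.05), each above the PBS median in 9 of 9 treated mice (adjusted p = 0.0199 and 0.0163, edgeR). The ribosome-bound Dnajc2 fell by 0.26 (SE 0.09, adjusted p = 0.0373). With the trend on length and GC content removed Dnajc5 was at 0.0077 and no longer called, and with the length slope as a covariate Dnajc5 was at 0.077, Dnajb11 at 0.23 and Dnajc2 at -0.041.

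Nucleotide exchange factors and partners of HSP70 had 2 of 10 genes called, both lower: Bag1 fell by 0.45 (SE 0.15) and the mitochondrial Grpel1 by 0.38 (SE 0.14), with adjusted p of 0.0286 and 0.0397 (edgeR). Of the chaperonins and prefoldin 5 of 16 were called, all lower and all prefoldin subunits, with a median over the list of -0.23. Pfdn4 was at 30.8 ± 12.7 CPM with PBS and 18.8 ± 5.19 CPM with treatment, a log2 fold change of -0.76 (SE 0.21, adjusted p = 0.0185), and Pfdn2 had one of -0.58 (SE 0.16, adjusted p = 0.0188, edgeR). In the model with the length slope Pfdn4 was at -0.095 and Pfdn2 at -0.066, and Bag1 and Grpel1 turned sign to 0.0021 and 0.043. None of the 5 other small heat shock proteins tested was called (edgeR, 0 with an unadjusted p under 0.05), and their log2 fold changes ran from -0.43 to -0.08, below the 0.46 of Hspb1.

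Of the heat shock factors and their regulators, Hsf1 rose by 0.41 (SE 0.13, adjusted p = 0.0247, edgeR), from 19.1 ± 4.27 to 24.9 ± 4.30 CPM, with 9 of 9 treated mice above the PBS median, and its inhibitor Hsbp1 fell by 0.40 (SE 0.14, adjusted p = 0.0397). Genes that HSF1 is known to induce, other than the members, had 5 of 19 called, 2 higher and 3 lower, with a median of 0.01, so the list as a whole was centered near 0. Fkbp4 and Hspa4l, an HSP110 protein (0.17, SE 0.06, adjusted p = 0.0370), were higher, and the polyubiquitin gene Ubb (-0.33, SE 0.11, adjusted p = 0.0336), Cacybp and Mrpl18 (-0.45, SE 0.16, adjusted p = 0.0373) were lower. Bag3, a cochaperone of that list, had its highest log2 fold change, 0.37 (SE 0.17), and was not called (adjusted p = 0.0855, edgeR). The activity of HSF1 itself was not tested. Given the length slope in the model, Hsf1 was at 0.041, Hspa4l at 0.11 and Ubb at -0.021, and Hsbp1 and Mrpl18 turned sign to 0.016 and 0.056.

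Regulators of the unfolded protein response had 5 of 12 genes called, 4 higher and 1 lower, with a median of 0.15. Sel1l, of the complex that exports unfolded proteins for degradation, rose by 0.50 (SE 0.11, adjusted p = 0.0151, edgeR) and the stress-sensing kinase Eif2ak3 by 0.46 (SE 0.13, adjusted p = 0.0188). Ddit3, a late transcription factor of that response, had a log2 fold change of -0.36 (SE 0.13, adjusted p = 0.0455) and one of 0.063 with the trend on length and GC content removed. In the model with the length slope Sel1l was at 0.16, Eif2ak3 at 0.077 and Ddit3 at 0.061. Immediate early genes, which neurons switch on within minutes of activity and which share stress inputs with HSF1 targets, had 6 of 12 called, all higher, and a median of 0.67. Egr2 rose by 0.98 (SE 0.28, adjusted p = 0.0204) and Fos by 0.88 (SE 0.22, adjusted p = 0.0170, edgeR), and in the model with the length slope they were at 0.55 and 0.52.

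**Figure D5:**
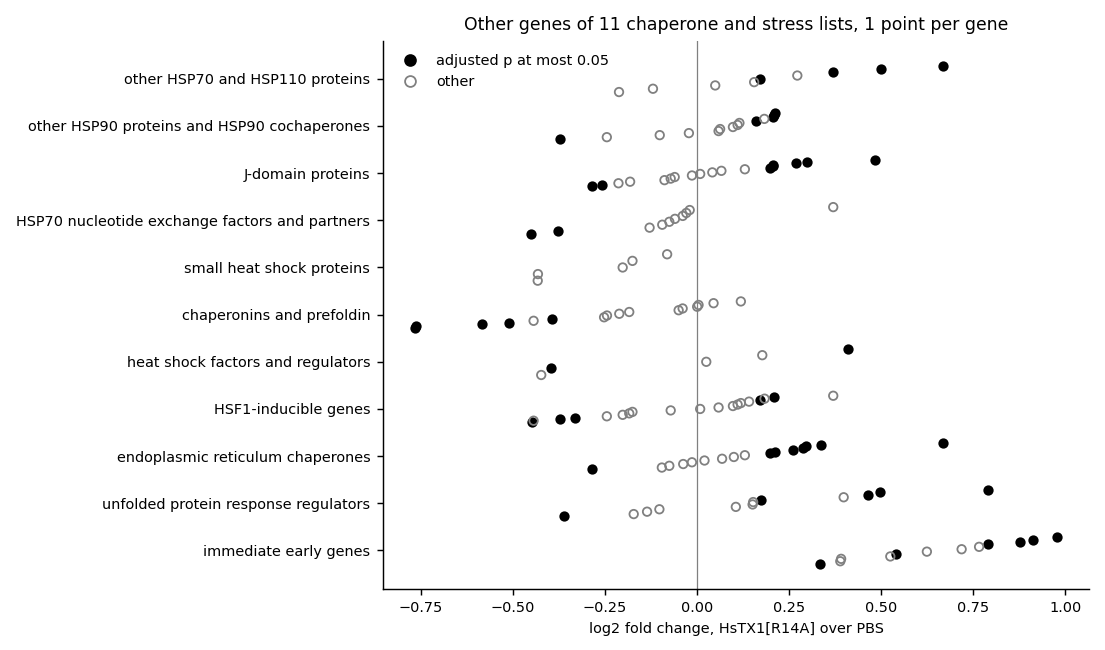
Log2 fold change, HsTX1[R14A] over PBS (horizontal axis), of the other genes in 11 lists (vertical axis), 1 point per gene and list, filled where edgeR's adjusted p is at most 0.05. The filled points of prefoldin lie between -0.77 and -0.39, and those of the immediate early genes between 0.33 and 0.98.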

How the data were processed

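RNA of 21 whole SAMP8 brains, 1 library per mouse, had been mapped by the authors with STAR to GRCm38 and counted per gene with Salmon. The deposited values used here are these estimated counts, without normalization, of 16318 genes. They were rounded to whole numbers, and 90.5% already lay within 0.01 of one. Columns of the authors' own comparison (log2 fold change, average expression, p-value, FDR) and 53 further per-sample columns (37 CPM, 16 counts) were not used. Replicates are separate animals, and library totals are given with the results.

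After filterByExpr, 16303 genes were normalized with TMM and fitted by the quasi-likelihood functions of edgeR 4.0.16 (R 4.3.3), the model holding sex and treatment. P-values were adjusted by Benjamini-Hochberg with a threshold of 0.05. Sex in PBS mice (16039 genes) and the interaction had models of their own. Each SE is the absolute log2 value over the root of F. Log2 CPM carries a prior count of 2, and RPKM is CPM per kilobase of the longest GENCODE transcript. Correlations were tested with 100000 permutations and neighboring levels with all 4096 sign changes (scipy 1.17.1).

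The members and lists were chosen with earlier results of these data known. All members are named, with, per list, the 2 genes of smallest p called in each direction and, for 3 patterns, the 3 genes of highest r. Bag3 was added after its value was seen. The alternatives were limma/voom 3.58.1 with and without quality weights, DESeq2 1.42.0, relative log expression scaling, other filters on low counts, the Hspa1a and Hspa1b sum, models without sex or with name form, length slope or 1 surrogate variable (sva 3.50.0), a loess correction for length and GC, single name forms, and single mice omitted. The procedure was tested on simulated data with 200 genes changed 2-fold. It recovered 172 of them for treatment, 137 for sex in PBS mice and 73 for the interaction, with 9, 7 and 3 false calls. The interaction test thus missed most changes of that size. The simulated libraries held no length slope and no name form, so the false calls counted here do not cover either of these.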

Additional observations from a re-analysis of the deposited data

How the results depend on the processing

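The direction of 9 of the 10 members between treatments was above 0 under every alternative run, and Hsp90aa1 was at -0.09 within the less common name form and above 0 elsewhere. The count of members past the threshold, 8 of 10 and a description only, ranged from 6 to 8 under the alternatives except for 0 with the length slope as a covariate and 0 within each name form alone. All genes called, 5144, came to 2110 with 1 surrogate variable, 2499 with the length and GC trend removed, 1999 with the name form as a covariate, 2984 without a sex term, and 0 with the length slope as a covariate and within either name form. Other list genes called, 43, came to 24, 31, 15, 22 and 0 in the same order. Omitting single mice gave 2289 (PBS mouse 90 omitted) to 6614 called genes (treated mouse 93 omitted), 19 to 55 list genes with the same mice omitted, and 6 to 8 members. Omitting treated mouse 71, 98, 81 or 88 gave 3332, 3005, 3263 and 3121 genes and 24 or 25 list genes. Correlated pairs of members, 8, came to 4 with the trend removed (2 of them among the 8) and 3 within the more common name form, and to between 0 (without PBS mouse 90) and 8 with 1 mouse left out, with 4 or 5 without mice 103, 104 or 82. With the length slope as a covariate the sign turned for Bag1 (0.0021), Cacybp (0.017), Dnajb9 (0.0010), Grpel1 (0.043), Hsbp1 (0.016), Mrpl18 (0.056) and Ddit3 (0.061), and for Ddit3 also with the trend removed (0.063). Each name form alone holds fewer mice, and why the counts changed under any of the alternatives was not tested. No member was called for sex or interaction under any alternative run. The study randomized mice to treatment within each cage, but the sample titles name no cage. No comparison within cages was therefore possible. Counts as low as 34 limit Hspb1 and as low as 41 limit Hspa1a.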
